A study of Mus musculus with 4 samples.

Results

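The miR-181 family is a group of microRNAs (miRNAs) that share the same seed, the bases at the 5′ end through which a miRNA recognises its target messenger RNAs. It was followed here in the developing mouse molar through the 4 probes named miR-181a, miR-181b, miR-181c and miR-181d, chosen by name (mmu-miR-181a, mmu-miR-181b, mmu-miR-181c and mmu-miR-181d on the array, with no asterisk) out of 696 miRNA probes. The samples were total RNA of mandibular molar tooth germs from untreated embryos of ICR mice, an outbred strain, at embryonic day 11 (E11), day 12 (E12), day 14 (E14) and day 16 (E16). Each stage was measured on 1 Agilent miRNA array with 1 colour (Cy3), and the sources used here do not give the number of embryos behind an array. With 1 array per stage no test between stages can be made, so every difference below is a difference between arrays. Errors printed with ± are the measurement errors stated for each probe, so animal-to-animal spread is not part of them.

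A miRNA acts by guiding the silencing machinery to messenger RNAs that pair with its seed, which lowers their stability and translation. Because all members of the miR-181 family carry 1 seed, their predicted targets largely overlap, and they differ mainly in the bases behind the seed. In mice the family is best known from blood, where miR-181a tunes the sensitivity of T cells to antigen and promotes B-cell development, and it has also been studied in muscle differentiation and in the nervous system. The precursor of a miRNA is a hairpin with 2 arms. An asterisk in a probe name marks the arm regarded as the less abundant, whatever its signal on these arrays. Of the 6 miR-181 probes 2, miR-181a-1* and miR-181a-2*, are such arms.

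The 4 mature sequences (RefSeq, GRCm38.p6) show what sets the members apart; capitals mark the seed, bases 2 to 8 from the 5′ end.
miR-181a: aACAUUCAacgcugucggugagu
miR-181b: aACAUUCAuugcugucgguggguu
miR-181c: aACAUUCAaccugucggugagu
miR-181d: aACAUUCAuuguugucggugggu
All 4 members matched the RefSeq table, and these 4 were its only mature mouse miRNAs with this seed. Positions are counted from the 5′ end. miR-181b differs from miR-181a by A9U, C10U and A21G and by 1 further base at its 3′ end. miR-181d carries the same 3 substitutions and C12U in addition. miR-181c lacks 1 base of miR-181a and has no substitution against it. The identity was 95.7% between miR-181a and miR-181c and 91.7% between miR-181b and miR-181d, against 78.3% to 83.3% for the other 4 pairs.

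The family comes from 6 genes in 3 clusters. Mir181a-1 (mature sequence at chr1:137966468-137966490, plus strand) and Mir181b-1 (chr1:137966650-137966673, plus strand) lie on chromosome 1, with 120 bases between their mature sequences. Mir181a-2 (chr2:38852741-38852763, plus strand) and Mir181b-2 (chr2:38853845-38853868, plus strand) lie on chromosome 2, 1038 bases apart, and both overlap Nr6a1, an orphan nuclear receptor gene, and the long noncoding RNA gene Nr6a1os. Mir181c (chr8:84178924-84178945) and Mir181d (chr8:84178759-84178781) lie on the minus strand of chromosome 8, 103 bases apart. miR-181a and miR-181b are therefore each made from 2 genes, and the arrays cannot tell the copies apart, whereas miR-181c and miR-181d each have 1. The asterisk arms can be assigned to 1 gene. The hairpin of Mir181a-1 (chr1:137966455-137966541, plus strand) is shown because both of its arms were measured, with miR-181a and miR-181a-1* in capitals in that order.
Mir181a-1 hairpin: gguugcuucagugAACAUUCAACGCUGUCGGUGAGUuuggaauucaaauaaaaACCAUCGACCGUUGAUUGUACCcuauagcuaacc

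All 4 members were detected at every stage, as were 197 of the 696 miRNAs. The stated error of a member's signal was 7.54% to 10.5% of the signal. As deposited, the signal of miR-181a was 73.4 ± 7.70 at E11, 194 ± 17.1 at E12, 245 ± 20.3 at E14 and 369 ± 30.2 at E16. Relative to its level, the step from E11 to E12 was the widest of the 3. For miR-181b the signals were 208 ± 16.2, 254 ± 19.7, 289 ± 21.9 and 342 ± 25.8, a shallower course. miR-181c had 68.8 ± 7.14, 126 ± 11.6, 147 ± 12.2 and 214 ± 17.1. miR-181d had 99.8 ± 9.06, 152 ± 13.2, 182 ± 14.8 and 230.1 ± 18.4. For both, E11 was lowest and E16 highest. These intensities are not scaled between arrays, and the whole distribution moved as well. In bulk RNA, fewer cells of a type and less RNA per cell cannot be told apart.

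The arrays brightened with stage. The 75th percentile of log2 signal, taken over the 197 miRNAs detected on all arrays, was higher than at E11 by 0.67 at E12, 1.08 at E14 and 1.44 at E16. It was subtracted from each array to give the scaled log2 signal used for the differences below. On that scale miR-181a stood at -1.77 at E11, -1.04 at E12, -1.11 at E14 and -0.87 at E16, and miR-181b at -0.27, -0.65, -0.87 and -0.98. On this scale E11 was the lowest stage of miR-181a and the highest of miR-181b, both probes were lower at E14 than at E12, and as deposited both were higher at each later stage. miR-181c stayed within -1.86 and -1.66, and miR-181d within -1.55 and -1.32. Probes differ in affinity, so the level of one member was not set against that of another. Sums over several probes, given further below, carry the same limit.

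**Figure D1:**
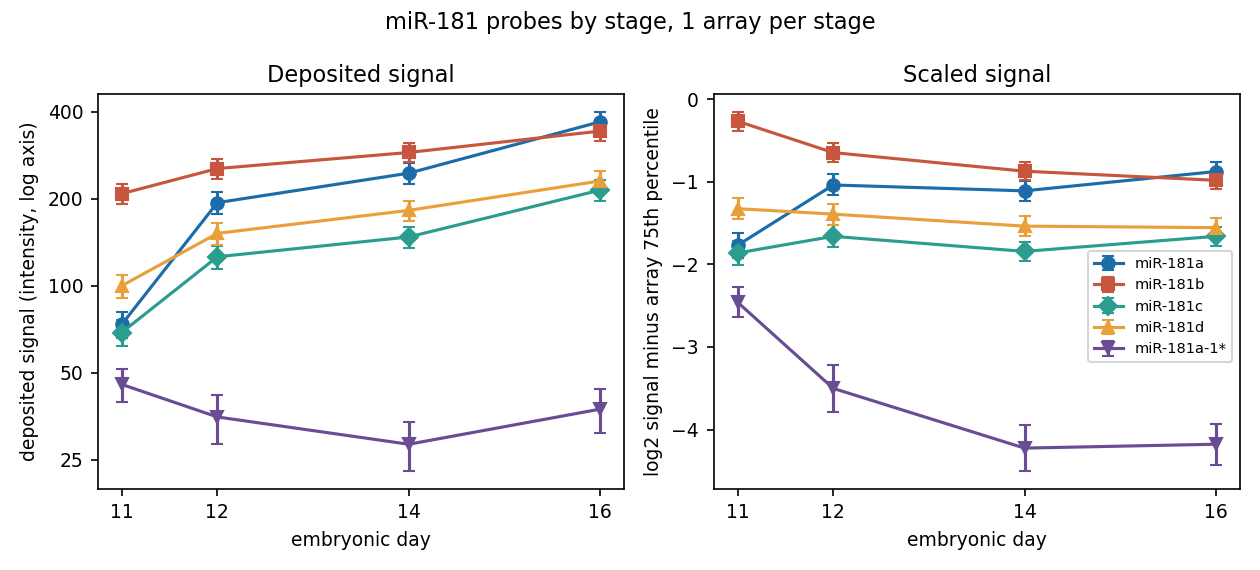
Signals of the 4 miR-181 members and of miR-181a-1* by embryonic day, as deposited (left, log axis) and as log2 signal minus the array's 75th percentile (right). Points are single arrays and bars the stated measurement error; on the right miR-181a lies between -1.77 and -0.87 with its lowest value at E11, while miR-181a-1* goes down to -4.22 at E14.

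The comparison of E16 with E11 spans the series. On the scaled signal miR-181a was 1.86-fold higher at E16 (log2 0.89 ± 0.19), and it stayed higher under all 7 scalings compared (0.72 to 2.33). miR-181b was 1.64-fold lower (-0.72 ± 0.16), a direction that turned on the deposited signals (0.72). miR-181c (0.20 ± 0.19) and miR-181d (-0.23 ± 0.17) lay within 1.32 times their errors of 0, and miR-181d turned positive under median scaling (0.29) and as deposited (1.21). None of the 4 members was at least 2-fold higher or lower, against 13.7% of the 205 miRNAs detected at both stages that were higher and 37.6% that were lower. The family median was -0.01 and the median of all 205 miRNAs -0.74. All 4 members lay above the latter, miR-181b by 0.03, less than its error. Of the 205 miRNAs, 31 had a larger difference than miR-181a, 58 than miR-181c, 81 than miR-181d and 101 than miR-181b. At 1.5-fold, miR-181a passed upward (20.5% of all miRNAs did) and miR-181b downward (52.7% did).

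Most of the distance opened between E11 and E12. miR-181a was 1.66-fold higher at E12 (0.73 ± 0.20, 0.55 to 1.40 over the scalings, the highest as deposited, where 22.9% of all miRNAs passed 2-fold upward), and 27 of 201 miRNAs had a larger difference. miR-181b was 1.30-fold lower at E12 (-0.38 ± 0.16), turning to 0.29 on the deposited signals. miR-181c was at 0.20 ± 0.20 and miR-181d at -0.07 ± 0.18, each within 1.01 times its error of 0, the latter at 0.60 on the deposited signals. No member passed 2-fold, where 9.45% of the 201 miRNAs were higher and 8.46% lower. At 1.5-fold, miR-181a passed upward (19.4% of all did) and no member downward (25.9% did). The family median was 0.07 and that of all miRNAs -0.20.

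Between E12 and E14 the members had similar differences, each within 1.44 times its error of 0. Their differences were -0.07 ± 0.17 (miR-181a), -0.15 ± 0.17 (miR-181d), -0.18 ± 0.18 (miR-181c) and -0.23 ± 0.16 (miR-181b). The 4 values lay within 0.15 of each other on the log2 scale, less than their errors. Their signs turned with the scaling. All 4 were positive on the deposited signals, with median scaling and with the 75th percentile over miRNAs that match a RefSeq gene. Quantile normalization gave -0.01 (miR-181b) to 0.17 (miR-181a). On the scaled signal all 4 were above the median of -0.40 of 212 miRNAs, of which 12.7% were 2-fold or more higher and 15.1% lower. From E14 to E16 the differences were 0.23 ± 0.17 (miR-181a), 0.18 ± 0.17 (miR-181c), -0.02 ± 0.16 (miR-181d) and -0.11 ± 0.15 (miR-181b). Again no member passed 2-fold (7.36% of 231 miRNAs were higher and 13.4% lower). On the scaled signal 3 of the 4 were above the median of -0.06 of the 231 miRNAs. The signs depended on the scaling. All 4 were positive on the deposited signals, and all 4 negative with the 75th percentile over miRNAs that match a RefSeq gene.

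**Figure D2:**
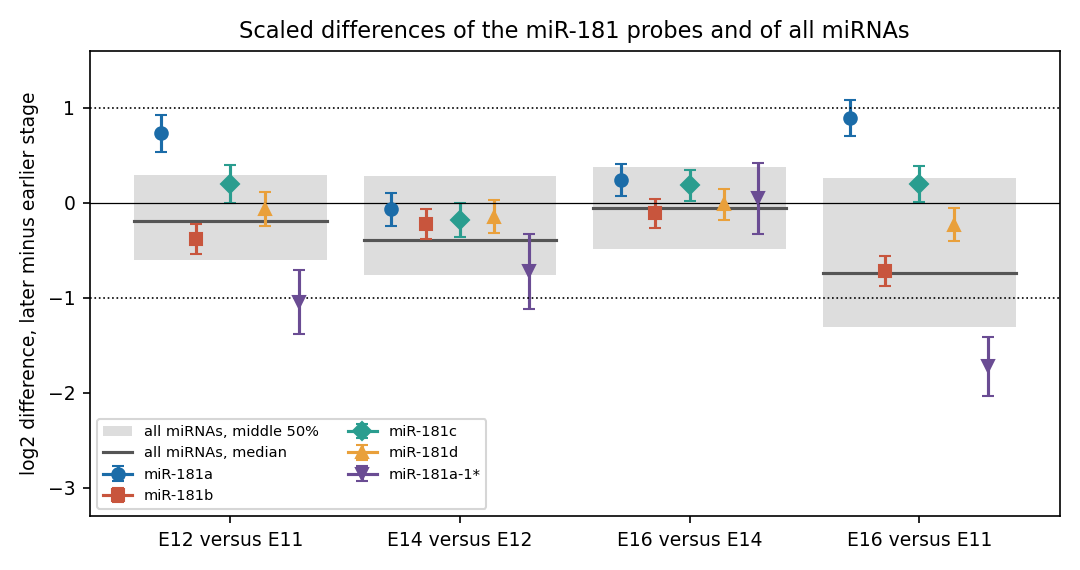
Scaled log2 difference, later minus earlier stage, of the 4 members and miR-181a-1* in 4 comparisons, with combined measurement errors as bars. Grey boxes and lines give the middle 50% and the median over every miRNA detected at both stages, and dotted lines mark 2-fold. miR-181a lies above the grey box at E12 versus E11 (0.73) and at E16 versus E11 (0.89), and miR-181a-1* below it in the same comparisons (-1.04 and -1.72).

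Differences between members do not depend on a constant scaling of an array, since any such factor cancels. From E11 to E16 the difference of miR-181a exceeded that of miR-181b by 1.61 ± 0.25 on the log2 scale, or 3.05-fold, which is 6.49 times its error. Most of it, 1.11 ± 0.25, was present at E12, and the later steps added 0.15 ± 0.23 and 0.34 ± 0.23, each within 1.51 times its error. Under quantile normalization, which is not a constant factor, the contrast was 1.88. miR-181a and miR-181b come from the same clusters, so this is a contrast between cluster partners. It is not an unusual distance on these arrays: among the 20910 pairs that the 205 miRNAs form, 37.0% were as far apart or farther, and the median pair differed by 1.20.

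The partners of the chromosome 8 cluster stayed closer. The difference of miR-181d minus that of miR-181c was -0.43 ± 0.26 from E11 to E16, 1.68 times its error (-0.63 under quantile normalization). Of the 20910 pairs, 80.2% were as far apart or farther. In the order of their E16 versus E11 differences, miR-181a came before miR-181c, miR-181d and miR-181b. This order held under quantile normalization, whereas a constant scaling of an array cannot change it. The gap was 0.69 ± 0.27 between miR-181a and miR-181c and 0.49 ± 0.23 between miR-181d and miR-181b, 2.57 and 2.07 times their errors. For these gaps the shares of pairs as far apart or farther were 68.9% and 77.7%.

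Over all 4 stages, after each profile was centred on its own mean, the root-mean-square distance was smallest between miR-181c and miR-181d (0.15) and between miR-181b and miR-181d (0.18). It was 0.28 between miR-181a and miR-181c and largest, 0.60, between miR-181a and miR-181b. Both pairs of highest sequence identity, miR-181a with miR-181c and miR-181b with miR-181d, thus came after the pair of miR-181c and miR-181d and before the other 3 pairs. Of the pairs that share a genomic cluster, 1 was the closest and 1 the farthest. Cross-hybridisation is possible between members that differ by few bases, and its part in these distances was not tested. Each member had a miRNA outside the family that was nearer to it than any other member was. These distances were 0.09 for miR-181a, 0.07 for miR-181b, 0.08 for miR-181c and 0.05 for miR-181d.

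On the scaled signal the asterisk arm of Mir181a-1 was lower at E12 than at E11, where miR-181a was higher. miR-181a-1* was detected at every stage, and its deposited signal was 45.5 ± 5.83 at E11, 35.1 ± 6.87 at E12, 28.2 ± 5.40 at E14 and 37.3 ± 6.44 at E16. Unlike the 4 members, it was not brightest at E16. On the scaled signal it was 3.29-fold lower at E16 than at E11 (-1.72 ± 0.31), and lower under all 7 scalings (-1.90 to -0.28; the deposited signals gave -0.28 and are within their error of 0). Of the 205 miRNAs, 179 had a larger difference. At E12 it was 2.06-fold lower than at E11 (-1.04 ± 0.34), at E14 it was at -0.72 ± 0.39 against E12, and at E16 at 0.05 ± 0.37 against E14.

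The difference of miR-181a exceeded that of miR-181a-1* by 2.61 ± 0.36 from E11 to E16, or 6.12-fold, which is 7.17 times its error. By E12 the contrast was 1.77 ± 0.39. From E11 to E16, 15.6% of the 20910 pairs that the 205 miRNAs form were as far apart or farther. A look at asterisk arms was made after the values of miR-181a-1* were seen. Detected at both E11 and E16 were 13 pairs of a miRNA and its asterisk arm, this one included. None had a higher contrast than miR-181a with miR-181a-1*, and the next were miR-154 (2.17) and miR-411 (2.15) with their asterisk arms. The 13 pairs had a median of 0.88 and a range of -1.07 to 2.61. Under quantile normalization and in the authors' table the contrast was 2.47 and 1 of the 13 pairs, miR-106b with its asterisk arm, was higher (2.75). miR-181b, which shares the chromosome 1 cluster with miR-181a-1*, exceeded it by 1.004 ± 0.35 from E11 to E16 (0.59 under quantile normalization and in the authors' table). Here 57.4% of the 20910 pairs were as far apart or farther. The signal of miR-181a-1* is low and its error large, 12.8% to 19.6% of the signal. The arm of the other gene, miR-181a-2*, was not detected on any array, where the lowest detected signals were 5.48 to 7.43. A part of Mir181a-2 in the signal of miR-181a can therefore not be read from its asterisk arm.

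**Figure D3:**
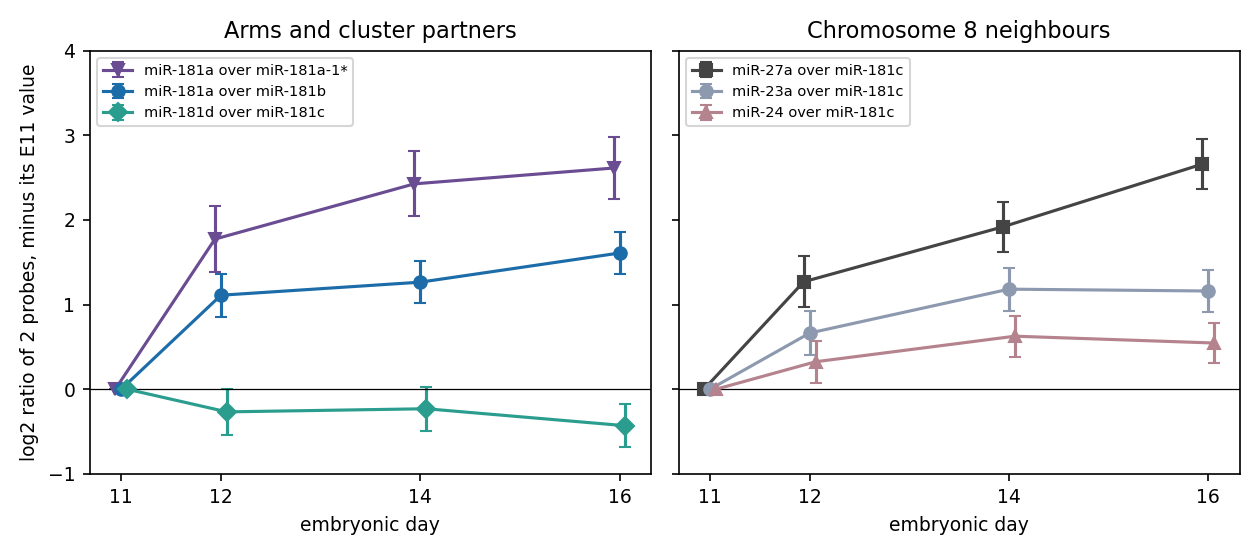
Log2 ratio of 2 probes by embryonic day, minus its value at E11, with combined measurement errors as bars; a constant scaling of an array does not move these values. Left, miR-181a over miR-181a-1* is at 2.61 at E16, miR-181a over miR-181b at 1.61 and miR-181d over miR-181c at -0.43; right, miR-27a, miR-23a and miR-24 over miR-181c are at 2.66, 1.16 and 0.55.

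The chromosome 8 cluster has another miRNA cluster close by. Mir23a, Mir27a and Mir24-2 lie on the opposite strand, Mir23a at 29.6 kb from Mir181c. The deposited signal of miR-27a was 42.8 ± 5.80 at E11, 189 ± 15.3 at E12, 346 ± 25.9 at E14 and 841 ± 61.9 at E16, a much steeper course than that of miR-181c or miR-181d. Its scaled difference from E11 to E16 exceeded that of miR-181c by 2.66 ± 0.29 and that of miR-181d by 3.09 ± 0.28. It was ahead of miR-181c at each of the 3 steps, by 1.27 ± 0.30, 0.65 ± 0.24 and 0.74 ± 0.22. miR-23a exceeded miR-181c by 1.16 ± 0.25 from E11 to E16. miR-24, which is also made from another gene, Mir24-1, exceeded it by 0.55 ± 0.24. The probes for miR-27a*, miR-24-1* and miR-24-2* were not detected at any stage. Within 100 kb a further gene with a probe, Mir709, gave a scaled difference of -1.10 ± 0.18 for miR-709 from E11 to E16 (0.33 as deposited).

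Profiles most like each member were looked for among the 192 other miRNAs detected on all arrays, by the root-mean-square distance over the 4 stages. Nearest to miR-181a were miR-24 (0.09), let-7a (0.12) and miR-26a (0.14), against a median distance of 0.68. Nearest to miR-181b were miR-17* (0.07), miR-182 (0.09) and miR-103 (0.09), with a median of 0.48. miR-181c lay nearest to miR-425 (0.08), miR-30d (0.10) and miR-30c (0.11), with a median of 0.52. miR-181d lay nearest to miR-151-5p (0.05), miR-224 (0.07) and miR-331-3p (0.08), with a median of 0.47. For miR-181a-1* the nearest were miR-335-3p (0.16), miR-17 (0.18) and miR-18a (0.18), with a median of 0.65. With 4 points per profile, a single array weighs heavily in such a distance. Where miRNAs had to exceed 10 times their error on all arrays, which left 96, miR-181c kept 1 of its 3 nearest, miR-30c.

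Other miRNA families were set beside the miR-181 family as a measure of scale. In the let-7 family, whose members are known to accumulate during differentiation, 8 of 9 members were at least 2-fold higher at E16 than at E11, with differences of -0.80 to 4.12 and a median of 1.58. In the miR-30 family 2 of 5 were, with -0.01 to 1.54 and a median of 0.40. On the same scaled signal, 13.7% of the 205 miRNAs detected at both stages passed 2-fold upward. The miR-181 members spanned -0.72 to 0.89, a width of 1.61 against 1.55 in the miR-30 family and 4.91 in the let-7 family. With 1 array per stage, a difference between families could not be tested.

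The label of the tissue was read against markers. Of 7 epithelial miRNAs 6 were detected at E11 and 7 from E12 on, and of 7 mesenchymal miRNAs 6 at every stage. Summed over each list and given from E11 to E16, the deposited signals were 1795, 3382, 5363 and 9364 for epithelium and 10921, 17005, 11211 and 12870 for mesenchyme. From E11 to E16 the median scaled difference was 1.35 over 6 epithelial and -0.59 over 6 mesenchymal miRNAs. The mesenchymal miRNAs ranged from -2.51 to 1.67, and their median was 0.85 as deposited. Of cell types in which the miR-181 family is known, blood had 1, 2, 2 and 4 of 7 markers detected. Their sums were 404, 439, 698 and 1377, most of it the erythroid miR-451. miR-144, also on the blood list, was detected only at E16 (15.3 ± 4.41). The leukocyte marker miR-223 was detected at E12 (17.6 ± 4.85), E14 (32.6 ± 5.56) and E16 (82.4 ± 8.51) and miR-142-3p at E16 (64.4 ± 7.52), while miR-142-5p, miR-150 and miR-155 were not detected at any stage. Neural markers had 2, 3, 2 and 4 of 8 detected, with sums of 93.9, 179.7, 125 and 216; miR-124, miR-9, miR-9* and miR-132 were not detected at any stage. The 4 muscle markers, miR-1, miR-133a, miR-133b and miR-206, were not detected at any stage. Both endothelial markers were detected throughout, with sums of 239.8, 446, 427 and 791. These sums are of deposited signals, on arrays that brightened with stage. From E11 to E16 the scaled difference was 0.15 for miR-451, the 1 blood marker detected at both stages. The median was 0.09 over 2 endothelial and -0.45 over 2 neural markers. The summed signal of the 4 miR-181 members was 450.0, 725, 863 and 1155 at the same stages. The part of the makeup of cells in the miR-181 signals was not tested.

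The scaling set the sign of several of these values. The order of the 4 members from E11 to E16 was the same throughout, but a constant scaling of an array cannot change it. Only quantile normalization, which gave the values of the authors' table, could have changed that order. miR-181a was at 0.86 with the 75th percentile over all probes, 0.72 over miRNAs with a RefSeq gene, 1.05 under quantile normalization and in the authors' table, 1.41 with median scaling and 2.33 as deposited. It was at least 2-fold higher under the last 4 of these. So were 16.1% of all 205 miRNAs under quantile normalization and in the authors' table, 21.5% with median scaling and 44.9% as deposited. miR-181b ran from -0.89 to 0.72, miR-181c from 0.02 to 1.64 and miR-181d from -0.41 to 1.21. In the authors' table, miR-181d held one and the same value, 164.7, at E12, E14 and E16, after 180.9 at E11.

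**Figure D4:**
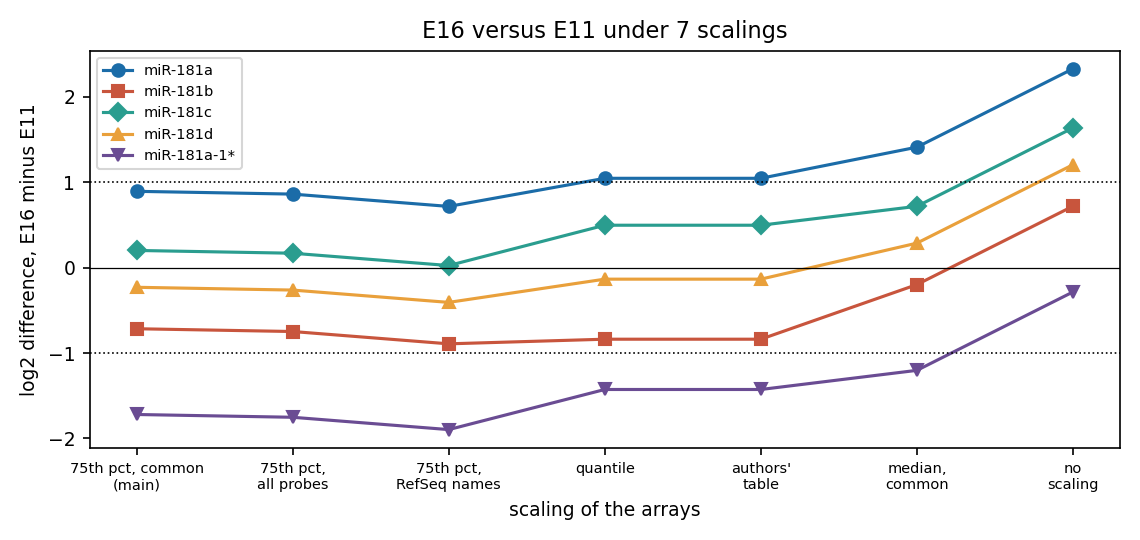
Log2 difference, E16 minus E11, of the 4 members and miR-181a-1* under 7 scalings of the arrays; lines join values of 1 probe and dotted lines mark 2-fold. miR-181a is above 0 (0.72 to 2.33) and miR-181a-1* below 0 (-1.90 to -0.28) under every scaling shown. The order of the probes is the same in each, but constant scalings of an array cannot change it.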

How the data were processed

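Each array received 100 ng of dephosphorylated total RNA, labelled by ligation of pCp-Cy3 with Agilent's miRNA kit, per the labels' protocols. Per the file headers, the deposited intensity is the total gene signal of a probe, with its error and a detection flag. The sources used here do not give the software or background correction behind it. Undetected features are written as 0.1. The authors' series table holds intensities on a linear scale; quantile normalization of all 718 features, 22 control features included, gave its detected values within 1.15e-05%, with no centring found.

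Computed here: control features were left out, and the log2 signal was taken minus the array's 75th percentile over the miRNAs detected on all arrays. Differences are later minus earlier, with both stated errors combined. A call is a difference of at least 2-fold between stages at which the miRNA was detected; it is a rule of size. With 1 array per stage, the number of arrays limits precision. The 7 scalings were this one, the 75th percentile over all probes or over the 180 miRNAs with a RefSeq gene (656 of 696 names matched), the median, no scaling, quantile normalization and the authors' table. Python 3.11.15, numpy 2.4.6 and pandas 2.3.3 were used, and Biopython 1.88 for alignments. The main scaling, the differences and their contrasts were tested on simulated data with as many planted rises as falls. A shift common to all miRNAs was removed before directions were judged, so a bias of the scaling was not tested.

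Named were the members, other miR-181 probes, probes of genes within 100 kb, the 3 nearest profiles per member and the marker lists. The members and lists were chosen with earlier results of these data known.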

Additional observations from a re-analysis of the deposited data

How the results depend on the processing

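The family medians moved with the scaling by more than a member's typical error in these cases. As deposited, they were 0.74 at E12 versus E11 (0.068 under the main scaling), 0.25 at E14 versus E12 (-0.16), 0.44 at E16 versus E14 (0.08) and 1.42 at E16 versus E11 (-0.01). Median scaling gave 0.074 at E14 versus E12, 0.33 at E16 versus E14 and 0.503 at E16 versus E11. The 75th percentile over miRNAs with a RefSeq gene gave 0.28 at E14 versus E12 and -0.38 at E16 versus E14. Quantile normalization and the authors' table gave 0.010 at E14 versus E12 and 0.18 at E16 versus E11. The constant scalings shift all members alike by construction; for quantile normalization the cause was not tested.

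The number of members at least 2-fold higher, 0 under the main scaling in each comparison, was 1 at E12 versus E11 as deposited, where 22.9% of all miRNAs passed. At E16 versus E11 it was 3 as deposited (44.9% of all miRNAs passed), 1 with median scaling (21.5%) and 1 with quantile normalization or the authors' table (16.1%). At 1.5-fold, 1 member was higher at E12 versus E11, as were 19.4% of all miRNAs. At E16 versus E11, 1 was higher (20.5% of all miRNAs were) and 1 lower (52.7% were). The difference of miR-181a minus that of miR-181b went to 1.39 at E12 versus E11 (1.11) and to 1.88 at E16 versus E11 (1.61) under quantile normalization and in the authors' table. The contrasts of miR-181a with miR-181a-1*, of miR-181d with miR-181c and of miR-27a with miR-181c, added after seeing the data, moved by less than their errors. No paired analysis was possible because each stage has 1 array, and no array could be left out. Signal over background limits miR-181a-1*, with errors of up to 19.6%, and miR-425, named as near miR-181c, with up to 23.5%.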
